A study of Mus musculus with 12 samples.

Results

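The genes described here are 47 genes of DNA replication and of the E2F programme, chosen by name. All 47 were found by gene name in the table of 54146 genes, and all 47 were among the 13002 genes that could be tested. RNA came from D2A1 cells, a mouse mammary carcinoma line that expressed H2B-GFP, a fluorescent histone, and was loaded with CellVue Claret, a membrane dye that is diluted when cells divide. The cells were injected into the tail vein of female mice aged 6 to 8 weeks and sorted from the lungs, on day 12 according to the methods and day 14 according to the results text of the study. Cells that had kept the dye were named dormant and cells that had lost it were named growing. Hosts were WT in the labels, which the methods also call floxed controls, or Tgfbr2 KO, in which a floxed Tgfbr2 was deleted with LysM-Cre, a Cre driven by the Lyz2 promoter of myeloid cells. The deletion was in the host, not in the injected tumour cells. Each library came from an aliquot of 50 sorted cells, and there were 3 libraries in each of 4 groups, called dormant or growing, WT or KO. The study gives n as mice, but the labels do not tie a library to an animal, so the p-values measure the spread between these libraries.

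Before a cell copies its genome, the origin recognition complex, Cdc6 and Cdt1 load the Mcm2 to Mcm7 helicase onto origins, and Gmnn holds Cdt1 back until the next cycle. Cdc45 and the GINS complex turn the loaded helicase on, primase and the polymerases alpha, delta and epsilon copy the strands, and Pcna, put on DNA by the Rfc clamp loader, tethers the polymerases. E2F factors, freed from pocket proteins by cyclin E and other cyclin kinases, switch on much of this machinery late in G1. In cells that have left the cycle the transcripts of these genes are typically low, which is why they serve as a readout of proliferation. The question for this gene set was how far the transcripts of cells that had kept the dye differed from those of growing cells, and whether that depended on the host.

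A promoter window from RefSeq (build GRCm38.p6, 250 bases before to 50 bases after the start) was on hand for 39 of the 47 genes. The E2F motif was searched on both strands as TTTCCCGC, TTTCGCGC, TTTGCCGC or TTTGGCGC, and 14 of these 39 genes (35.9%) had at least 1 match, against 2.6% of the 27025 genes with a window of the same length. With the first T left out, giving 7 letters that include the former matches, the shares were 24 of 39 (61.54%) and 10.86%. The letters CCAAT, the core of an element common in promoters of cell cycle genes, were in 24 of 39 members (61.54%) and in 41.06% of all genes, and TTTGAA, the core of the CHR element of genes of G2 and mitosis, in 5 of 39 (12.82%) and in 20.23%. The windows below are shown for Mcm2, Cdc6, Rrm2 and Ccne1, whose levels are followed through every comparison, and for the 3 further members with a match in the stretch that was printed. Each is the stretch within 170 bases before the start that lies outside every exon of GENCODE M21, taken as its longest run, written 5′ to 3′ on the strand of the gene, with E2F matches in capitals.

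Mcm2, chr6:88898781-88898950, minus strand: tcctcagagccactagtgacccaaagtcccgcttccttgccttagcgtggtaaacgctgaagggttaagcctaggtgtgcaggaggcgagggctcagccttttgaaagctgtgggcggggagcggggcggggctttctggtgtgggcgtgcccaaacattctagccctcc
Cdc6, chr11:98907982-98908150, plus strand: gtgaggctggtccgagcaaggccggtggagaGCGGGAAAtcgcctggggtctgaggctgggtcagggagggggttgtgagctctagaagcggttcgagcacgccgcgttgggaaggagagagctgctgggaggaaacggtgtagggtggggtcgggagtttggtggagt
Rrm2, chr12:24708084-24708240, plus strand: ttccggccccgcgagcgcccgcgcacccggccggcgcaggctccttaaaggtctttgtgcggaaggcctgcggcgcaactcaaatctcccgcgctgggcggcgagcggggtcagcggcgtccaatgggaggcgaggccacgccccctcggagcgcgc
Ccne1, chr7:38107535-38107660, minus strand: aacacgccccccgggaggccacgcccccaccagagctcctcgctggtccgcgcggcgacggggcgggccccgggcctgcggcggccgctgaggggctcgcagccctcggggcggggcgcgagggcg
Mcm6, chr1:128359706-128359875, minus strand: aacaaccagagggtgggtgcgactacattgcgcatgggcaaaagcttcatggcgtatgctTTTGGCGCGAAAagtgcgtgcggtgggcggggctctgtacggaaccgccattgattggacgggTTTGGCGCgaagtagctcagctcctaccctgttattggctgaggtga
Mcm5, chr8:75109339-75109508, plus strand: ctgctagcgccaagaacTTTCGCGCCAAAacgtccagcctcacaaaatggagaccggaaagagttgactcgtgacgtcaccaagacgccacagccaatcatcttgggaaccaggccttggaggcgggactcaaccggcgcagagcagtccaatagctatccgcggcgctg
Pola1, chrX:93632156-93632325, minus strand: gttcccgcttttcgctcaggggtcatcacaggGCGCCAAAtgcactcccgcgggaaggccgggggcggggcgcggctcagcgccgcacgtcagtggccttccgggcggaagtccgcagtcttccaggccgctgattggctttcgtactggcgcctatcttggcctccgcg

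Mcm6 held 3 matches, at -110, -106 and -47 from the start, the first pair overlapping on opposite strands. Mcm5 held an overlapping pair at -153 and -149, and Cdc6 and Pola1 held 1 match each at -138. Mcm2, Rrm2 and Ccne1 had none of the 8-letter forms anywhere in their window. A match says only that these letters are there, and no binding was measured. Over both hosts, 9 of the 14 genes with an 8-letter match and 17 of the 25 without one were called lower in dormant libraries by the test described next (12.6% of all genes tested were), with median differences of -1.99 and -2.28 log2 units. Without members that passed the filter on low values only through growing libraries, the counts were 5 of 10 and 14 of 21. The order of the medians was the other way in WT hosts (-2.39 with a match and -1.83 without) and the same in KO hosts (-2.20 and -2.37).

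Levels are TPM, which is scaled to gene length and to the same total in every library, so they can be set side by side between genes but are shares of the RNA of a library, and fewer cells of a type cannot be told apart from less RNA per cell. Differences were tested on log2(TPM + 1) in 1 limma fit of the 12 libraries. A gene was called where it differed by 1 log2 unit or more with an adjusted p, over the 13002 genes, of 0.05 or less. TPM keeps no depth, and an exact 0 can be a failed estimate. The number of genes above 0 was 11325 to 13242 in dormant WT, 14770 to 15315 in dormant KO, 14352 to 14475 in growing WT and 13406 to 14063 in growing KO. All WT libraries were in library batch 1 and all KO libraries in library batch 2, so host and batch cannot be told apart, whereas dormant against growing within a host lies within a batch.

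Markers of other cells differed between the groups. Of 8 alveolar type 2 markers, 7 were at 1 TPM or more in every dormant KO library and their sum was 40072 to 42411 TPM, against 49.0 to 141 in dormant WT, 53.4 to 97.3 in growing WT and 457 to 465 in growing KO. The 5 erythroid markers summed to 50831 to 56264 TPM in dormant KO, 8988 to 13031 in dormant WT, 6196 to 6851 in growing WT and 6881 to 7791 in growing KO. Macrophage markers (8 genes) summed to 3278 to 3478 TPM in dormant KO, 1474 to 1952 in dormant WT, 35.6 to 80.4 in growing WT and 166 to 198 in growing KO. Between the dormant groups only Lyz2 of the 7 macrophage markers tested was called higher in dormant KO, and the median of the 7 was -0.41 log2 units. In WT hosts 5 of these 7 were called higher in dormant than in growing libraries, with a median of 4.51, as were 2 of 4 neutrophil markers tested. The neutrophil sum (6 genes) was 4035 to 4358 TPM in dormant KO, 326 to 915 in dormant WT and at most 109 in either growing group, with Ly6g and Mmp8 at 0 throughout dormant WT and growing WT and Csf3r, Ly6g and Mmp8 throughout growing KO. Endothelial (769 to 857), fibroblast (1835 to 2074), B cell (1089 to 1201) and T and NK cell (260 to 391) sums were likewise highest in dormant KO. In the other direction, 6 genes fixed as a check of the tumour line (Spp1, Akr1c18, Krt8, Krt18, Vim and Epcam) summed to 1845 to 2247 TPM in dormant KO and to between 31779 and 43826 in the other 3 groups. Spp1 and Akr1c18 carry that sum. Between the dormant groups Spp1, Akr1c18 and Krt8 were called lower in dormant KO and Epcam higher, whereas Krt18 and Vim were not called (ratios of mean TPM of 1.06 and 0.574). These values move with the results on dormant KO, and the macrophage and neutrophil values also with those on dormant WT against growing WT. Their part in either was not tested.

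The 47 genes together held 3191 to 3355 TPM in growing WT and 3837 to 4036 TPM in growing KO. They held 1101, 1948 and 1974 TPM, from lowest to highest, in dormant WT and 1103 to 1150 TPM in dormant KO. No dormant library reached the lowest growing library. Of the 47 genes, 43 were at 1 TPM or more in all 6 growing libraries, but 14 were so in every dormant WT library and 29 in every dormant KO library. The number below 1 TPM was 17 to 21 in a dormant WT library, 11 to 13 in a dormant KO library and 0 to 2 in a growing library.

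**Figure D1:**
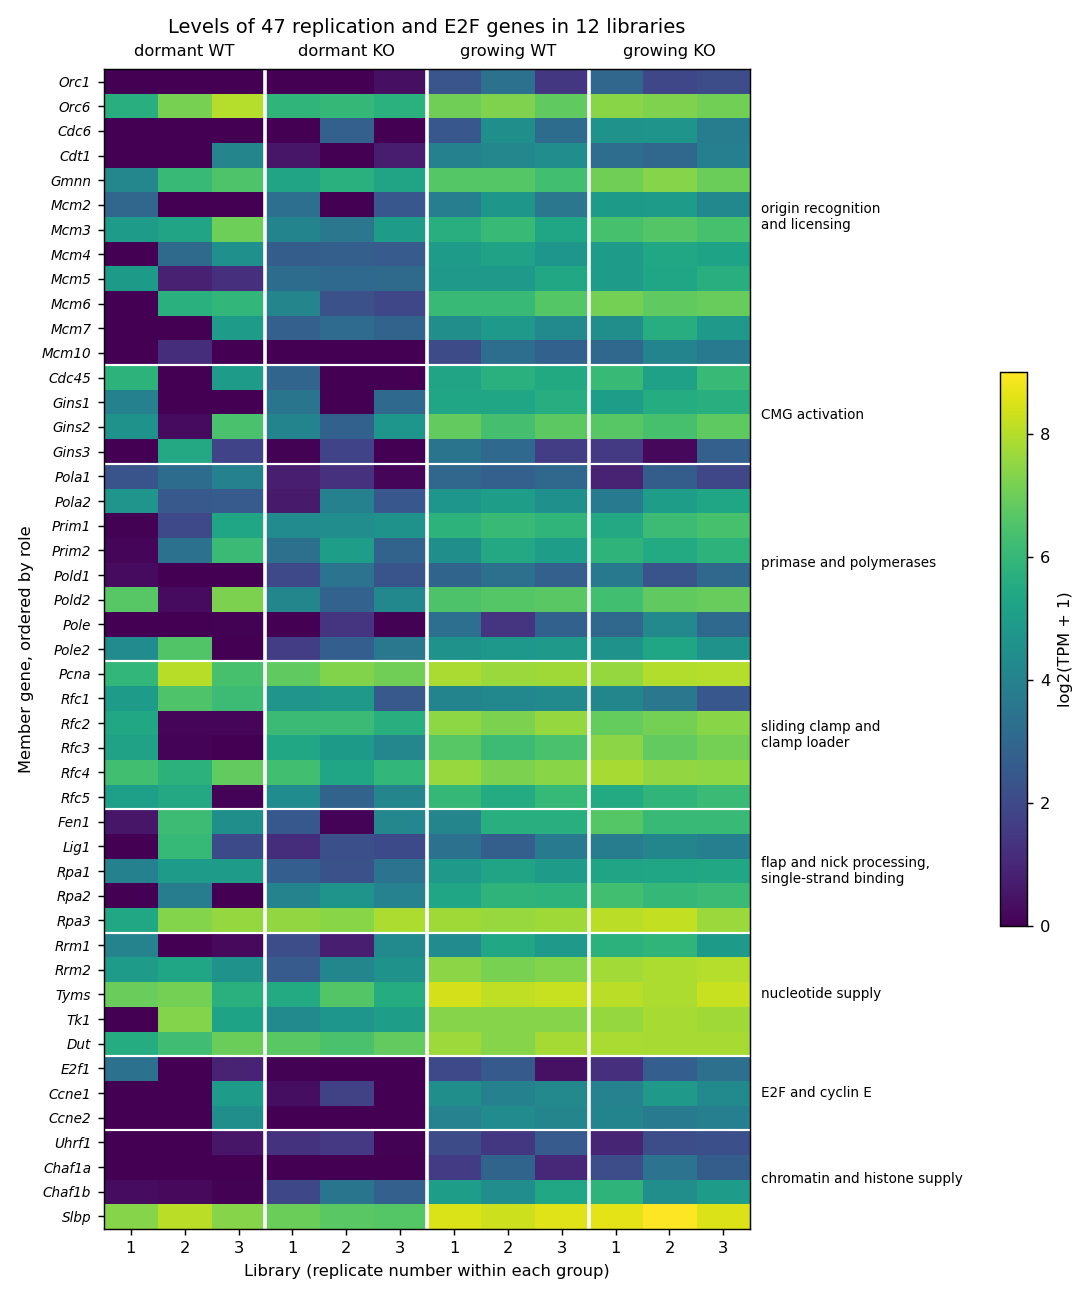
Level of each of the 47 genes, as log2(TPM + 1) in colour, in the 12 libraries, with genes ordered by role. The 6 growing columns are filled nearly throughout, whereas 17 to 21 genes are below 1 TPM in each dormant WT library and 11 to 13 in each dormant KO library.

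The dormant groups differed in how even their libraries were. The median coefficient of variation over the 47 genes was 1.283 in dormant WT, 0.626 in dormant KO, 0.173 in growing WT and 0.225 in growing KO, and over all genes tested it was 0.977, 0.55, 0.327 and 0.417. In dormant WT, 23 of the 47 genes were below 1 TPM in at least 1 library and at 10 TPM or more in another, and 4 of the 47 were so in dormant KO. Low values in single dormant WT libraries were found across all genes. Of all genes tested, 34.33 to 50.45% were below 1 TPM in a dormant WT library, against 36.17 to 44.68% of the 47. In dormant KO these shares were 23.04 to 24.0% and 23.4 to 27.66%, and in growing libraries 20.4 to 24.16% and 0 to 4.26%. Among the 7533 genes at 1 TPM or more in all 6 growing libraries, 15.61 to 33.82% were below 1 TPM in a dormant WT library and 10.66 to 11.18% in a dormant KO library, and of the 43 members of this class 15 to 19 and 9 to 10 were.

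**Figure D2:**
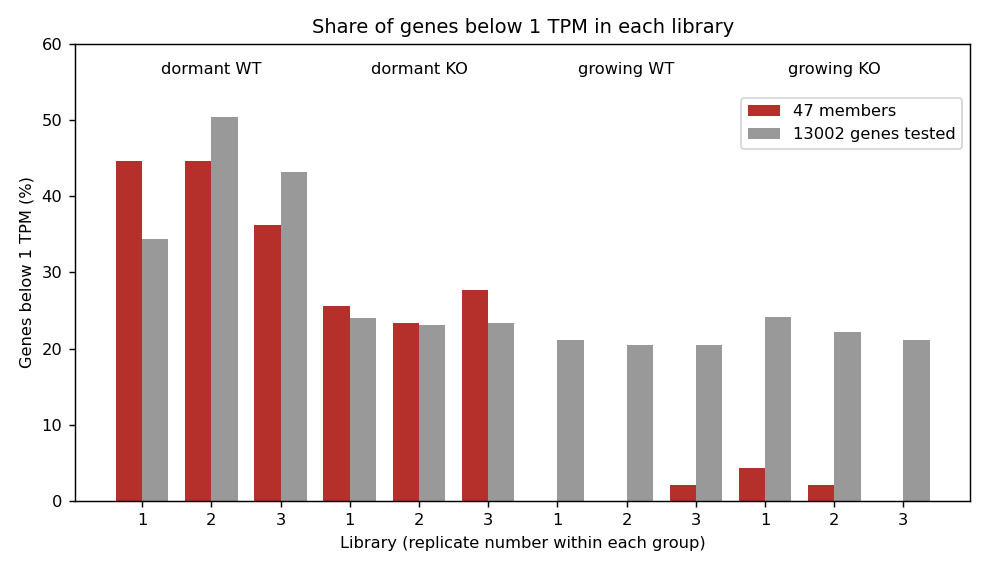
Percent of the 47 members and of the 13002 genes tested that were below 1 TPM in each of the 12 libraries. In the 6 growing libraries the members lie at 0 to 4.26%, far under the 20.4 to 24.16% of all genes tested, and in the dormant libraries both shares are of like size.

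In WT hosts, 13 of the 47 genes (27.7%) were called lower in dormant than in growing libraries and 0 were called higher, against 5.67% of all genes tested called lower and 1.85% called higher. The median difference was -2.32 log2 units over the 47 genes and -0.35 over all genes tested. In KO hosts, 19 of 47 (40.4%) were called lower and 0 higher, against 9.48% and 8.31% of all genes, with medians of -2.27 and -0.32. With the differences of both hosts averaged, 33 of 47 (70.2%) were called lower and 0 higher, against 12.6% and 6.99%, with medians of -2.42 and -0.35. There were 10 members that passed the filter on low values only through growing libraries, which selects for a lower dormant level, namely Orc1, Cdc6, Cdt1, Mcm10, Pole, E2f1, Ccne1, Ccne2, Uhrf1 and Chaf1a, and their values below are a description. Without them, 9 of 37 were called lower in WT hosts, 11 of 37 in KO hosts and, averaged, 24 of 37, with medians of -1.87, -2.17 and -2.20. Called lower in each host were 8 genes, of which Orc1, Cdc6, Mcm10 and Pole belong to the 10 and Rrm2, Tyms, Dut and Chaf1b do not.

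Read as ranges, all 3 dormant KO libraries lay below all 3 growing KO libraries for 40 of the 47 genes, against 28.3% of all genes tested, or for 31 of 37 without the 10 named above. The 7 that overlapped were Gins3, Pola1, Pola2, Pold1, Rfc1, Rpa3 and Uhrf1. In WT hosts 25 of the 47 lay below without overlap, against 19.4%, or 19 of 37 without the 10, and Rfc1, the large clamp loader subunit, lay above. Below without overlap in both hosts lay 22 genes, 17 of them outside the 10, against 7.84% of all genes tested. On the linear scale the ratio of mean TPM in dormant KO to growing KO had a median of 0.215 over the 37 members with a mean of at least 1 TPM in both groups, with a range of 0.0397 to 1.78. Dormant WT over growing WT had a median ratio of 0.48 over 39 members beside a log2 median of -2.32, with 23 members read at 10 TPM or more in 1 dormant WT library and below 1 TPM in another. Of the 6 tumour line genes, 5 were called lower in dormant KO than in growing KO, with ratios of 0.0447 for Spp1, 0.0109 for Akr1c18, 0.463 for Vim and 0.389 for Krt18. In WT hosts 0 of the 6 were called, and these ratios were 1.064, 1.497, 0.77 and 0.639.

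The number of calls depended on how the spread was estimated. The fit shares 1 spread over the 4 groups, and with only the groups compared there were 38 calls in KO hosts and 4 in WT hosts, or 39 and 5 when libraries were weighted by their own scatter. The share of all genes called lower then was 14.4% and 5.78%, or 16.8% and 1.87%. Leaving out 1 library gave 11 to 16 calls in KO hosts, with 11 without growing KO replicate 1 and 12 without growing KO replicate 3, where 7.21% and 6.77% of all genes were called lower. In WT hosts it gave 6 to 21, with 21 without dormant WT replicate 3 and 7, 6 and 6 without growing WT replicate 1, 2 and 3, where 7.92%, 2.85%, 2.64% and 2.55% of all genes were called lower. The direction of every one of these calls was lower in dormant libraries. The calls of Gmnn, Cdt1 and Ccne1 in KO hosts were lost in all 6 fits that left out 1 library, those of Dut and Mcm6 in 5, of Cdc45 in 4 and of Ccne2 in 3. In WT hosts Gins1 was lost in 5 of 6, Dut and Rfc3 in 4 and Tyms in 3, and over both hosts Mcm7 was lost in 11 of 12, Pola2 and Tk1 in 9 and Gins2 in 8.

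**Figure D3:**
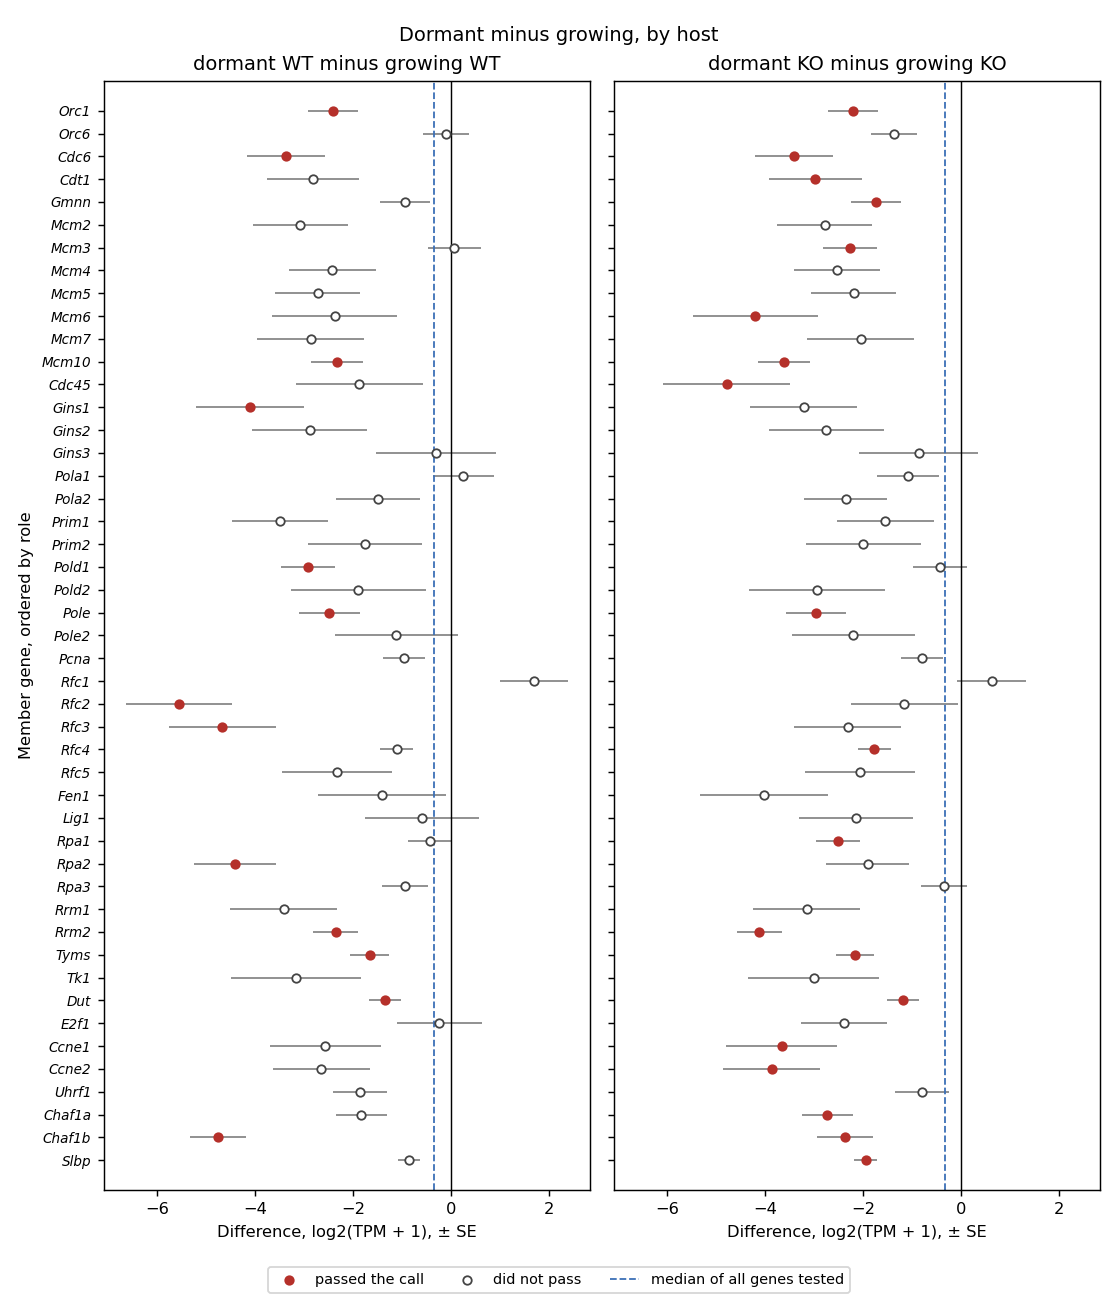
Difference of dormant minus growing on the log2(TPM + 1) scale, ± SE, for each of the 47 genes in WT hosts and in KO hosts, with filled points for genes called at an adjusted p of at most 0.05 and a size of at least 1. The members' median is -2.32 in WT hosts and -2.27 in KO hosts, and the dashed lines mark the medians of all genes tested, -0.35 and -0.32.

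The licensing genes were the largest role group, and 10 of its 12 members were called lower over both hosts, all but Orc6 and Mcm3, or 6 of 8 without the 4 admitted through growing libraries (Orc1, Cdc6, Cdt1 and Mcm10), against 12.6% of all genes. Their summed level was 459 to 558 TPM in growing WT, 637 to 734 in growing KO and 148 to 156 in dormant KO, while the dormant WT libraries held 133, 308 and 610 TPM. Cdc6, the loader of the helicase (ENSMUSG00000017499.15, chr11:98907801-98923940), read 0, 0 and 0.01 TPM in dormant WT, 0, 5.71 and 0 in dormant KO, then 4.42, 21.6 and 8.15 in growing WT, with 22.9, 24.2 and 12.6 in growing KO. It was thus at or near 0 in 5 of 6 dormant libraries and above 4 TPM in every growing one. As one of the 10 genes admitted through growing libraries, it differed by -3.37 ± 0.79 (SE) log2 units in WT hosts (limma, adjusted p = 0.0238), -3.42 ± 0.79 in KO hosts (adjusted p = 0.0101) and -3.40 ± 0.56 over both (adjusted p = 0.00156).

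Mcm2, a helicase subunit (ENSMUSG00000002870.8, chr6:88883474-88898780), read 6.89, 0 and 0 TPM in dormant WT, 8.9, 0.01 and 4.43 in dormant KO, then 13.3, 26.3 and 11.04 in growing WT, with 29.4, 30.9 and 17.6 in growing KO. Every dormant library lay below every growing library of its host. The difference was -3.07 ± 0.97 in WT hosts and -2.79 ± 0.97 in KO hosts, neither of them called (limma, adjusted p = 0.0746 and 0.0668), and -2.93 ± 0.68 over both hosts, which was called (adjusted p = 0.0105). Gmnn, the inhibitor of Cdt1 (ENSMUSG00000006715.11, chr13:24751845-24761923), read 16.9, 65.8 and 90.4 TPM in dormant WT, 37.0, 51.2 and 37.2 in dormant KO, then 97.5, 97.3 and 77.5 in growing WT, with 133, 165 and 126 in growing KO. It was read in all 12 libraries, and only in KO hosts did the dormant and growing ranges stand apart. Gmnn differed by -1.74 ± 0.51 in KO hosts (limma, adjusted p = 0.0324), by -0.93 ± 0.51 in WT hosts (adjusted p = 0.29) and by -1.34 ± 0.36 over both (adjusted p = 0.0202).

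Orc1, the large subunit of the origin recognition complex, was listed at 0 in all 3 dormant WT libraries and at 0 to 0.3 TPM in dormant KO, against 1.77 to 9.33 TPM in the growing libraries. Its log2 difference was -2.40 in WT hosts, -2.21 in KO hosts and -2.31 averaged over hosts. Mcm10, a helicase activator, was at 0 in all dormant KO libraries and read 0, 1.24 and 0 TPM in the dormant WT ones, with differences of -2.32, -3.61 and -2.96 in that order. Cdt1, the partner of Cdc6, was called in KO hosts (-2.98) and over both (-2.90). Of the other helicase subunits, Mcm6 was called in KO hosts (-4.20) and over both (-3.29), Mcm3 in KO hosts alone (-2.27, against 0.07 in WT hosts), and Mcm4 (-2.48), Mcm5 (-2.46) and Mcm7 (-2.46) only over both hosts. Orc6, the smallest subunit of the origin complex, kept 49.6 to 260 TPM in dormant WT and 53.2 to 63.5 in dormant KO against 112 to 168 in growing libraries, with differences of -0.10 and -1.37 that were not called.

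Among the 4 genes that activate the helicase, 3 were called lower over both hosts, against 12.6% of all genes tested. Cdc45, which forms the active helicase with GINS and the Mcm ring, read 6.63, 0 and 0 TPM in dormant KO, against 34.8 to 66.8 in growing KO, a difference of -4.79 ± 1.297 (limma, adjusted p = 0.0225), and over both hosts it differed by -3.33. In dormant WT it was at 56.2, 0 and 30.9 TPM, and the difference there of -1.87 was not called. Gins1 was called in WT hosts (-4.10) and over both (-3.66), and Gins2 over both (-2.82). Gins3 was the lowest of the 4 in growing cells, at 0.13 to 10.2 TPM, and overlapped between states in both hosts. The summed level of the 4 genes was 8.4 to 33.0 TPM in dormant KO, 42.2 to 118 in dormant WT and 164 to 231 in growing libraries.

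Of the 8 primase and polymerase genes, Pola2, Prim1, Pold1 and Pole were called lower over both hosts, or 3 of 7 without Pole, which was admitted through growing libraries, against 12.6% of all genes. Pole, the catalytic subunit of the leading strand polymerase, read 0, 0 and 0.03 TPM in dormant WT and 0.02, 1.54 and 0.05 in dormant KO, against 1.62 to 17.7 in growing libraries. It differed by -2.48 in WT hosts, -2.97 in KO hosts and -2.73 averaged over hosts. Pold1, the catalytic subunit of polymerase delta, differed by -2.91 in WT hosts and -1.67 over both, while its KO difference of -0.43 was not called. Pola2 (-1.93) and Prim1 (-2.52) were called only over both hosts. Prim2, Pold2, Pole2 and Pola1 were not called in any state comparison, with differences over both hosts of -1.88, -2.42, -1.66 and -0.41.

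Of the 6 genes of the clamp and its loader, Rfc2, Rfc3 and Rfc4 were called lower over both hosts, against 12.6% of all genes tested. Pcna, the sliding clamp (ENSMUSG00000027342.14, chr2:132249162-132253314), read 61.6, 262 and 82.5 TPM in dormant WT, 112, 156 and 131 in dormant KO, then 232, 203 and 210 in growing WT, with 191, 249 and 260 in growing KO. No library was near 0, all dormant KO libraries lay below all growing KO libraries, and dormant WT replicate 2 was the highest of the 12. Its differences of -0.96 ± 0.43, -0.81 ± 0.43 and -0.88 ± 0.30 for WT hosts, KO hosts and their average were not called (limma, adjusted p = 0.203, 0.232 and 0.0557). Rfc2 was called in WT hosts (-5.55) and over both (-3.36), as was Rfc3 (-4.67 and -3.49), and Rfc4 in KO hosts (-1.77) and over both (-1.44). Rfc1 read 30.2, 90.8 and 70.6 TPM in dormant WT and 16.0, 17.5 and 18.3 in growing WT, the one member that lay higher in dormant libraries without overlap, but its difference of 1.69 ± 0.70 was not called (limma, adjusted p = 0.165). Rfc5 differed by -2.33 and -2.07 in the 2 hosts without a call.

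Of the genes that finish Okazaki fragments or coat single strands, only subunits of replication protein A were called. Over both hosts these were 2 of 5 genes, against 12.6% of all genes tested. Rpa2 was called in WT hosts (-4.41) and over both (-3.16), and Rpa1, the large subunit, in KO hosts (-2.52) and over both (-1.47). Rpa3, the smallest subunit, kept 170 to 237 TPM in dormant KO against 201 to 291 in growing KO, and its differences of -0.94 and -0.35 were not called. Fen1, the flap nuclease, and Lig1, the ligase that seals nicks, were each at 0 or below 1 TPM in dormant WT replicate 1 and at 71.9 and 64.2 TPM in replicate 2, and differed over both hosts by -2.72 and -1.37 without a call.

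All 5 genes of nucleotide supply were called lower over both hosts, against 12.6% of all genes tested. The group summed to 175 to 236 TPM in dormant KO, 218 to 418 in dormant WT, 798 to 911 in growing WT and 966 to 1024 in growing KO. Rrm2, the regulated small subunit of ribonucleotide reductase (ENSMUSG00000020649.11, chr12:24708241-24714146), read 31.0, 38.8 and 23.7 TPM in dormant WT, 4.98, 16.4 and 23.6 in dormant KO, then 174, 147 and 161 in growing WT, with 219, 239 and 255 in growing KO. The dormant and growing ranges were far apart in both hosts, and no library was at 0. The difference was -2.35 ± 0.46 in WT hosts (limma, adjusted p = 0.0101), -4.12 ± 0.46 in KO hosts (adjusted p = 1.04e-04) and -3.24 ± 0.32 over both (adjusted p = 6.58e-05). Tyms, which makes thymidylate, differed by -1.66, -2.17 and -1.91, and Dut, which removes dUTP, by -1.34, -1.19 and -1.27, called in each case. Rrm1 (-3.28) and Tk1, the salvage kinase of thymidine (-3.10), were called only over both hosts.

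E2f1, the activator of the programme (ENSMUSG00000027490.17, chr2:154559407-154569892), was itself a low transcript, with 9.46, 0 and 0.82 TPM in dormant WT, 0.05, 0 and 0 in dormant KO, then 2.94, 4.87 and 0.34 in growing WT, with 1.36, 5.41 and 8.97 in growing KO. All dormant KO libraries lay below all growing KO libraries, whereas the highest of the 12 values was in dormant WT. The p-values and calls in this paragraph are a description, because E2f1, like Ccne1 and Ccne2, was admitted through growing libraries. Its differences of -0.23 ± 0.88, -2.39 ± 0.88 and -1.31 ± 0.62 for WT hosts, KO hosts and their average were not called (limma, adjusted p = 0.925, 0.0826 and 0.147). Ccne1, a cyclin that drives entry into S phase (ENSMUSG00000002068.16, chr7:38097984-38107534), read 0, 0 and 30.6 TPM in dormant WT, 0.26, 2.42 and 0.02 in dormant KO, then 21.2, 14.6 and 18.0 in growing WT, with 14.8, 28.2 and 18.4 in growing KO. Dormant WT replicate 3 held more Ccne1 than any growing library and the other 2 held none. The difference was -3.66 ± 1.13 in KO hosts (limma, adjusted p = 0.0428), -2.57 ± 1.13 in WT hosts (adjusted p = 0.196) and -3.12 ± 0.80 over both (adjusted p = 0.0167). Ccne2 had the same shape, with 21.3 TPM in dormant WT replicate 3 and at most 0.02 in the other 5 dormant libraries, and was called in KO hosts (-3.87) and over both (-3.26).

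The 4 genes of chromatin and histone supply were called lower over both hosts, against 12.6% of all genes tested. Of these 4, Chaf1a and Uhrf1 were admitted through growing libraries, and without them the count was 2 of 2. Chaf1a, the large subunit of the histone chaperone CAF-1, was at 0 in dormant WT and at most 0.01 TPM in dormant KO, against 1.01 to 9.93 in growing libraries, and was called in KO hosts (-2.74) and over both (-2.28). Chaf1b, the middle subunit, was called over both hosts (-3.56), in WT hosts (-4.76) and in KO hosts (-2.37). Slbp, which binds the stem loop of histone messages and was the highest member in growing cells, was at 98.6 to 125 TPM in dormant KO, 164 to 270 in dormant WT and 322 to 516 in growing libraries. It was called in KO hosts (-1.95 ± 0.23, limma, adjusted p = 1.55e-04) and over both (-1.40), while in WT hosts its difference of -0.86 fell short of 1 log2 unit. Uhrf1, a reader of newly copied DNA methylation, was called over both (-1.33).

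**Figure D4:**
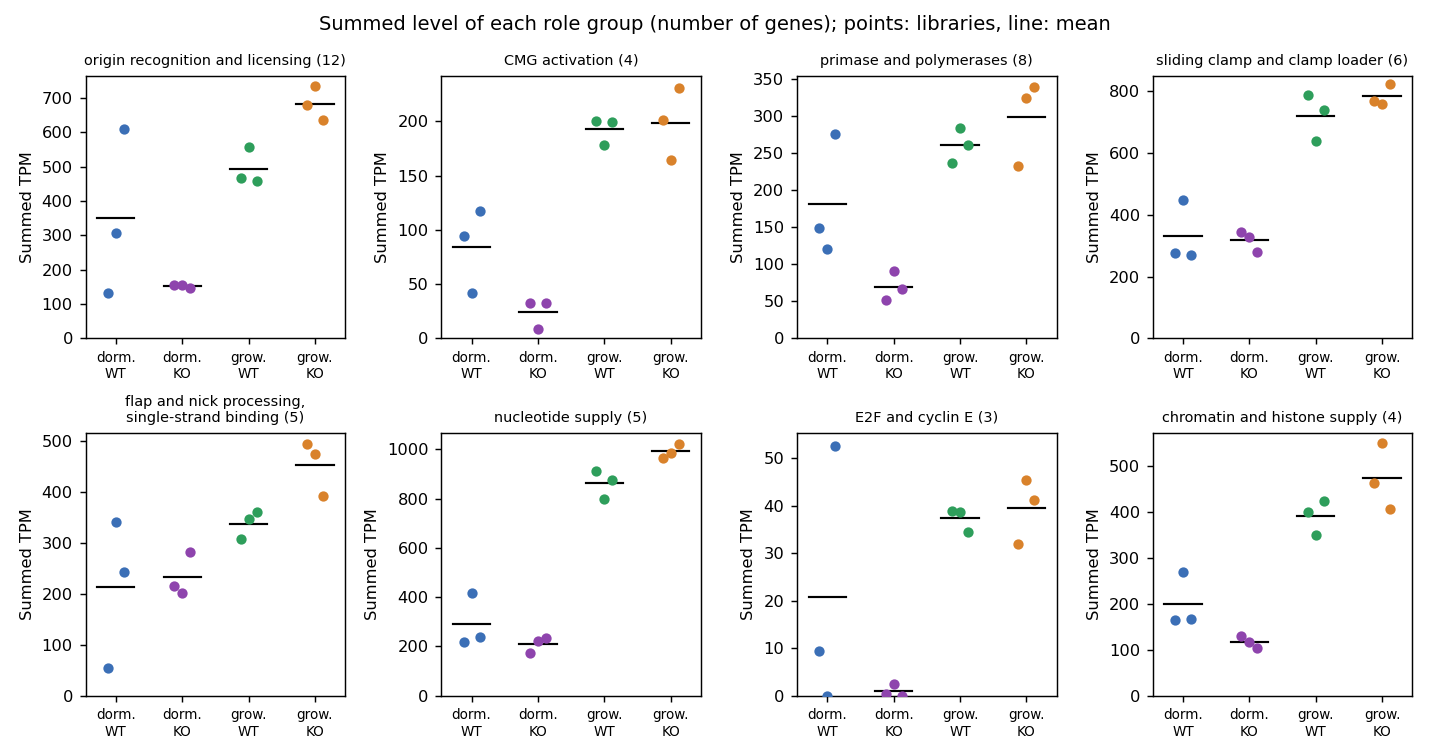
Summed TPM of the members of each role in every library, with points for the 12 libraries and a line at each group mean. The nucleotide supply group does not overlap between states, with 175 to 418 TPM in dormant and 798 to 1024 TPM in growing libraries, whereas the licensing sum of dormant WT runs from 133 to 610 TPM.

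The hosts were compared next within each state. Between the dormant groups, 4 of 47 genes (8.51%) were called higher in dormant KO and 2 (4.26%) lower, against 12.9% and 9.39% of all genes tested. The share was thus no higher than the background in either direction. In dormant WT the members also spread more than all genes tested, with a median SD of 1.76 against 0.999 log2 units. The median difference was 0.00 log2 units over the members and 0.17 over all genes. Without overlap, 4 lay above and 6 below in dormant KO, against 18.6% and 13% of all genes. Those below without overlap were Mcm3, Pola1, Rfc1, Rpa1, Rrm2 and Slbp.

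Rfc2, a small clamp loader subunit, read 41.3, 0.1 and 0.09 TPM in dormant WT and 69.5, 70.0 and 49.4 in dormant KO, against 178, 151 and 191 in growing WT, with 116, 139 and 171 in growing KO, a dormant difference of 4.09 ± 1.09 (limma, adjusted p = 0.0169). Rpa2, the middle subunit of replication protein A, read 0, 12.9 and 0 TPM in dormant WT, 15.3, 24.5 and 15.0 in dormant KO, then 39.8, 57.3 and 55.6 in growing WT, with 77.4, 62.9 and 69.3 in growing KO, a dormant difference of 2.97 ± 0.84 (adjusted p = 0.0238). In both genes the difference lay against a dormant WT group with 2 of 3 libraries at or near 0. Both calls were lost with only the groups compared, and in 3 (Rfc2) and 5 (Rpa2) of 6 fits that left out 1 library. Rfc2 overlaps Lat2, a gene of blood cells, on the opposite strand in GENCODE M21, and the strand setting of the counting was not stated. Other members also overlap a gene on the opposite strand, among them Rfc4 (Eif4a2) and Cdc45 (Ufd1). Whether such overlaps added to any level was not tested.

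Pold1 read 0.19, 0 and 0 TPM in dormant WT, 2.95, 9.67 and 4.07 in dormant KO, then 6.48, 9.0 and 5.82 in growing WT, with 11.4, 4.07 and 7.29 in growing KO, a dormant difference of 2.496 ± 0.55 (limma, adjusted p = 0.00626). Chaf1b read 0.23, 0.17 and 0.04 TPM in dormant WT, 2.85, 10.4 and 5.81 in dormant KO, then 32.0, 20.3 and 41.5 in growing WT, with 57.3, 21.1 and 30.6 in growing KO, a dormant difference of 2.55 ± 0.57 (adjusted p = 0.00689). These 2 were below 1 TPM in all of dormant WT and above 2 TPM in all of dormant KO. Both calls were lost after quantile normalization and with array weights, and that of Chaf1b also with a pseudocount of 5. Pold1 in dormant KO reached the level of growing cells, and Chaf1b did not.

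In the other direction, Pola1, the catalytic subunit of polymerase alpha, read 4.03, 8.03 and 14.7 TPM in dormant WT, 0.69, 1.45 and 0.1 in dormant KO, then 6.8, 5.74 and 7.0 in growing WT, with 0.8, 5.37 and 2.76 in growing KO, a dormant difference of -2.43 ± 0.63 (limma, adjusted p = 0.0149). Rpa1 read 14.6, 29.7 and 29.8 TPM in dormant WT, 5.52, 3.71 and 9.67 in dormant KO, then 28.4, 37.4 and 30.4 in growing WT, with 37.0, 38.2 and 40.7 in growing KO, a dormant difference of -1.83 ± 0.45 (adjusted p = 0.0109). Both were read in every dormant WT library. Both calls were lost with only the groups compared and with array weights. Pola1 was also lower without overlap in growing KO than in growing WT.

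For the genes followed throughout, the dormant KO minus dormant WT difference was 0.93 ± 0.97 for Mcm2, 0.91 ± 0.79 for Cdc6, -0.18 ± 0.51 for Gmnn, 0.26 ± 0.43 for Pcna, -1.20 ± 0.46 for Rrm2, -1.39 ± 0.88 for E2f1 and -0.95 ± 1.13 for Ccne1. None was called (limma, adjusted p from 0.0815 to 0.853). With only the groups compared 2 of the 47 genes (4.26%) were called, against 12.9% of all genes, and leaving out 1 library gave 4 to 13 calls, the highest without dormant WT replicate 1, where 27.7% of the members and 28% of all genes were called. Alveolar type 2, neutrophil and erythroid markers, as given above, were higher and Spp1 and Akr1c18 lower in dormant KO, and library batch split the same way.

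**Figure D5:**
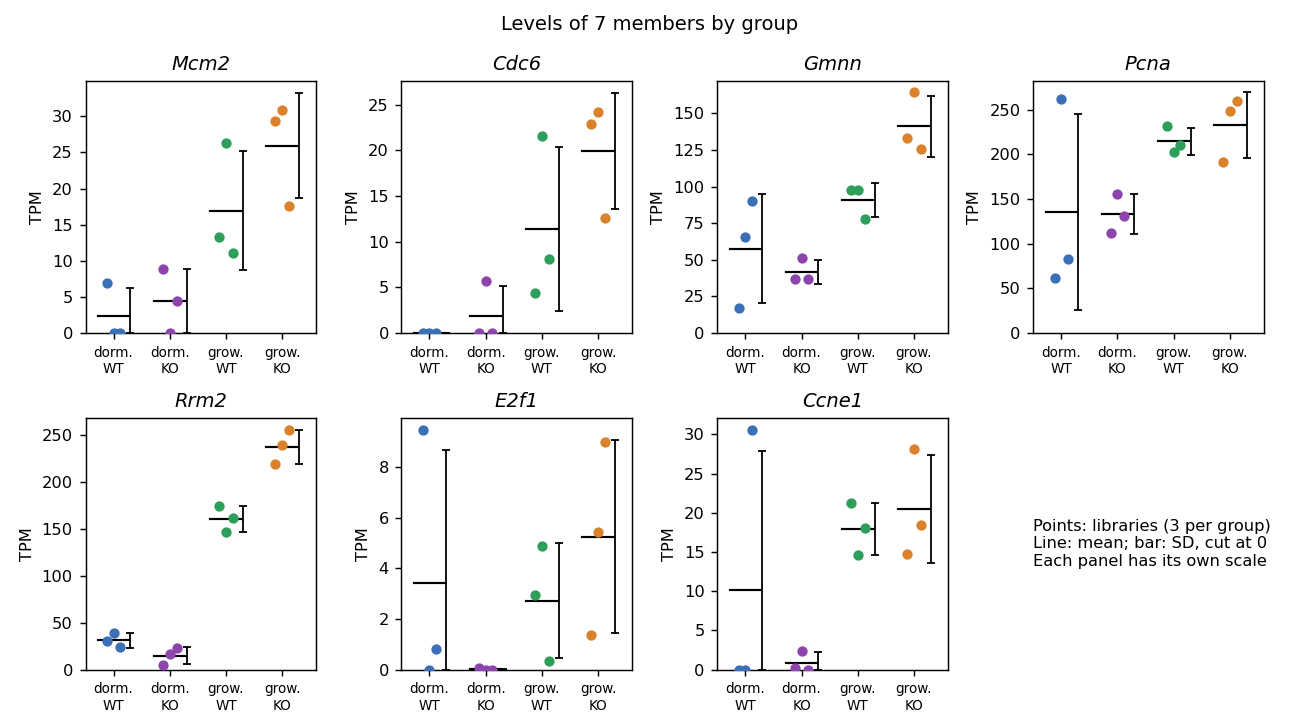
TPM of Mcm2, Cdc6, Gmnn, Pcna, Rrm2, E2f1 and Ccne1 in each library, with points for the 3 libraries of a group, a line at the mean and a bar for the SD, drawn no lower than 0. Rrm2 does not overlap between states, with 4.98 to 38.8 TPM in dormant and 147 to 255 TPM in growing libraries, while Pcna, E2f1 and Ccne1 each have 1 dormant WT library at or above the growing level.

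Between the growing groups, 0 of 47 genes were called in either direction, against 0.715% of all genes called higher and 0.261% called lower in growing KO. By limma, 0 of the 47 also had an unadjusted p under 0.05, the smallest adjusted p was 0.89, and no alternative tried gave a call. The differences ran from -1.24 to 1.11 with a median of 0.23, and 34 of 47 were above 0, while the median of all genes was 0.02. Without overlap, 11 of the 47 lay above in growing KO, against 13.3% of all genes, namely Gmnn, Mcm3, Mcm6, Prim2, Rfc3, Fen1, Lig1, Rpa2, Rrm2, Tk1 and Dut, and Cdt1 and Pola1 lay below, against 10.6%. The differences were 0.64 ± 0.97 for Mcm2, 0.96 ± 0.79 for Cdc6, 0.63 ± 0.51 for Gmnn, 0.11 ± 0.43 for Pcna, 0.56 ± 0.46 for Rrm2, 0.76 ± 0.88 for E2f1 and 0.15 ± 1.13 for Ccne1. The fit shares 1 spread per gene over the 4 groups, so these SE and p-values rest in part on the dormant libraries. The members' median SD was 0.255 log2 units in growing WT and 0.334 in growing KO, against 1.76 in dormant WT and 0.608 in dormant KO. Differences of these sizes were thus not resolved in this fit, which is not a sign that the levels were alike.

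Whether the step from growing to dormant differed between hosts was tested as the interaction, the KO difference minus the WT difference. No gene of the 47 was called by limma, against 6.18% of all genes called higher and 3.91% called lower. At an unadjusted p under 0.05 there were 7 (14.9%, against 23.3% of all genes tested, so below the background), namely Slbp (-1.10 ± 0.33, adjusted p = 0.0567), Rpa1 (-2.10), Mcm3 (-2.34) and Rrm2 (-1.77), with the lower difference in KO hosts, and Pold1 (2.48), Chaf1b (2.40) and Rfc2 (4.39), with the lower difference in WT hosts. The values were 0.28 ± 1.37 for Mcm2, -0.05 ± 1.12 for Cdc6, -0.80 ± 0.72 for Gmnn, 0.15 ± 0.61 for Pcna, -2.15 ± 1.24 for E2f1 and -1.09 ± 1.60 for Ccne1. The count was 8 without dormant WT replicate 1 (17%, against 15% of all genes), 3 without replicate 2 or replicate 3 of that group (6.38%, against 13.6% and 13%) and 2 without dormant KO replicate 3 (4.26%, against 9.32%). Genes called in 1 host and not in the other are therefore not shown to differ between hosts.

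Of 55 other genes of the pathway, set down as 4 lists, 52 were tested. In WT hosts 7 were called lower in dormant libraries, in KO hosts 8, and over both hosts 16, with 0 called higher in each. These shares of 13.5%, 15.4% and 30.8% stand against 5.67%, 9.48% and 12.6% of all genes tested. Of the 52, 13 were admitted only through growing libraries, Exo1, Cdc7 and Mybl2 among them, and without these the counts were 6, 7 and 13 of 39. Among other E2F and pocket proteins, 3 of 10 tested were called over both hosts, namely E2f4, a repressor E2F (-2.78), Rbl1, which encodes p107 (-1.50), and Tfdp1, the partner of E2F factors (-1.26). E2f4 (-3.60) and Rbl1 (-2.25) were also called in WT hosts and Tfdp1 (-1.84) in KO hosts. Of 6 kinases and cyclins of S phase, Ccna2 (-2.25), Cdc7 (-2.01), Cdk1 (-1.95) and Cdk2 (-2.27) were called over both, and Cdk1 in KO hosts (-3.13).

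Of 24 other origin and fork factors tested, Exo1, an exonuclease, was called over both hosts (-3.38), in WT hosts (-3.10) and in KO hosts (-3.66). Orc3 (-2.48), Dscc1 (-1.90) and Rnaseh2a (-1.24) were called over both, Orc3 also in WT hosts (-3.90), and Dscc1 (-3.15) and Rnaseh2a (-1.92) in KO hosts. With Exo1, 4 of the 24 were called lower over both hosts, against 12.6% of all genes tested. Of 12 other nucleotide and chromatin genes, 5 were called lower over both, against the same 12.6%. Among them were Asf1b (-2.01), Dctpp1 (-1.56), Nasp (-1.79) and Mybl2 (-1.60), of which Mybl2 was admitted only through growing libraries. Dctpp1 (-1.31) and Nasp (-3.05) were called in WT hosts and Asf1b (-3.05), Atad2 (-1.84) and Dctpp1 (-1.80) in KO hosts. Between the dormant groups, Orc3 (3.20) was among the genes called higher in dormant KO, and Cdk1 (-2.04), Dscc1 (-2.15), Rnaseh2a (-1.58), Asf1b (-2.38) and Atad2 (-2.51) were called lower, or 3.85% higher and 9.62% lower against 12.9% and 9.39% of all genes tested. Between the growing groups 0 of the 52 were called. The interaction was called for Orc3 (2.83 ± 0.72, limma, adjusted p = 0.0277) and for Atad2 (-2.13 ± 0.56, adjusted p = 0.0328), each 1.92% of the 52 genes, against 6.18% of all genes called higher and 3.91% called lower. Atad2 differed by -1.84 in KO hosts and by 0.29, not called, in WT hosts.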

How the data were processed

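The authors deposited 1 table of TPM values per gene (length-scaled transcript shares estimated by RSEM), whose 12 columns named for these samples were used. Another 30 columns of the table matched no sample here and were not used. The submitters' processing notes name bcl2fastq 2.20, cutadapt 1.18, STAR 2.5.2b, RSEM 1.3.3 and DESeq2, with mm10. The labels name a poly(A) kit, whereas the study's methods name Smart-seq2, and which made these libraries was not settled. TPM sum to the same total in every library, so depth is unknown and no counting interval is given.

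From these values log2(TPM + 1) was taken for the 13002 genes at 1 TPM or more in at least 3 of the 12 libraries. One limma fit (3.58.1, R 4.3.3) with a mean for each of the 4 groups, an eBayes trend and 8 residual degrees of freedom gave 6 contrasts, with Benjamini-Hochberg adjustment over all genes tested in a contrast. The members and lists were chosen with earlier results of these data known. Genes named are Mcm2, Cdc6, Gmnn, Pcna, Rrm2, E2f1 and Ccne1 in every comparison and every member called, with further members given as a level or a count. On simulated data for dormant WT against growing WT, 106 of 200 genes changed by -3 were called (53%), as were 8 unchanged genes of 13002 in all. The simulation gave each gene 1 spread for all 12 libraries and no floor at 0. It changed only genes with a mean log2 value above 3. In the data the median SD over genes tested was 0.999 log2 units in dormant WT and 0.342 in growing WT. The simulated shares therefore do not measure missed or false calls in this comparison. Alternatives were the pseudocount, the filter, scaling, the removal of genes above 5000 TPM, the samples in the fit, array weights, the replicate number as a block, other thresholds and leaving out each library. Promoters are from RefSeq (GRCm38.p6) and gene positions from GENCODE M21 (GRCm38). Values of some other genes are not reported here.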

Additional observations from a re-analysis of the deposited data

Results flagged for a closer look

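For 2 genes of the pathway outside the 47, the difference between dormant and growing libraries itself differed between hosts by limma's interaction test. They are 2 of 52 tested, 1.92% called in each direction, against 6.18% of all genes called higher and 3.91% called lower. Orc3, a subunit of the origin recognition complex, read 0.27, 0 and 0 TPM in dormant WT and 6.51, 8.42 and 12.9 in dormant KO, against 10.3 to 26.9 in growing libraries, and its interaction was 2.83 log2 units (adjusted p = 0.0277). Atad2, a chromatin regulator of the E2F programme, read 47.7, 74.5 and 52.8 TPM in dormant WT and 14.2, 9.54 and 5.69 in dormant KO, against 33.4 to 56.3 in growing libraries, and its interaction was -2.13 (adjusted p = 0.0328). Host and library batch cannot be told apart in either.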

How the results depend on the processing

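For the growing groups the count stayed at 0 under every alternative run, and over both hosts it left a factor of 1.5 only at an adjusted p of at most 0.01 (18 in place of 33). That threshold gave 2 calls for dormant KO against dormant WT, 3 for WT hosts and 9 for KO hosts. Of all 13002 genes, 1126 were then called higher and 747 lower in dormant KO against dormant WT. For WT hosts, KO hosts and both, 249, 654 and 769 were called lower. With only the groups compared there were 2, 4 and 38 calls, and with array weights 2, 5 and 39. Without the filter WT hosts had 7 calls, and 441 of 25916 genes were called lower. Leaving out each library gave 4 to 13 calls for dormant KO against dormant WT, 6 to 21 in WT hosts, 11 to 16 in KO hosts and 0 to 8 for the interaction. The interaction had 2 calls with a pseudocount of 0.1, and 1 each without a filter, with a minimum of 5 TPM, with median-ratio scaling, with quantile normalization, without genes above 5000 TPM and with array weights. The median in WT hosts was -3.27 with a pseudocount of 0.1, -1.22 with 5 and -1.67 after quantile normalization. In KO hosts it was -1.71 with a pseudocount of 5 and -1.74 after median-ratio scaling, which moved the median of all genes from -0.32 to 0.09. Over both hosts it was -3.08 with 0.1 and -1.45 with 5, and the interaction median was 0.15 with 0.1. The cause of these changes was not tested. Of 2124 values of single members under alternatives, 1820 kept their side of the threshold, 290 lost it and 14 gained it, and none of the called ones changed sign. The kept values include those of genes followed throughout that were not called and stayed so. The 290 lost ones were all calls, so their share among calls is larger than among all 2124. Leaving out dormant KO replicate 3 gave the one call in the other direction over both hosts, 1 member higher in dormant libraries beside 29 lower.

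The replicate numbers did not pair the samples: over 6 pairs of the same host and number, correlations of deviations ran from -0.012 to 0.021. With the number as a block in the full fit there were 7 calls for dormant KO against dormant WT, 13 in WT hosts, 17 in KO hosts and, averaged over hosts, 31. Of all 13002 genes, 1589 were called higher and 1133 lower in the first, and 573, 1100 and 1482 lower in the others. With a block within each host there were 5 in WT hosts, where 311 of all genes were called lower.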
